A study of Mus musculus with 2 samples.

Results

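Tuft cells are chemosensory epithelial cells that need the POU factor Pou2f3 and signal through the ion channel Trpm5, and in the thymic medulla they form one of the mimetic types of medullary thymic epithelial cell (mTEC). They are known for carrying signalling genes otherwise best studied in blood cells or neurons. The 7 genes described here were taken by symbol from the 31053 genes of both count matrices, and all 7 were found in each: Ptprc, Pik3cg, Sh2d6, Sh2d7, Nrgn, Adgrg6 and Agt. They had been chosen from earlier results of these data as genes high in tuft cells or lower in one of the libraries. Their levels in tuft cells and their ratios between the libraries over all cells are therefore given as a description, with no test.

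The data are single-cell 3′ RNA counts of mouse thymus cells sorted as EPCAM-positive and Ly51-negative, in 2 libraries. Both carry Foxn1-Cre, which acts in thymic epithelium, on a floxed Ikaros (Ikzf1) background. The first is labelled Foxn1-Cre(+) Ikaros+/fl, with 1 floxed allele (labelled +/fl), and the second Foxn1-Cre(+) Ikarosfl/fl, with both alleles floxed (labelled fl/fl). Neither is free of Cre, and the labels give no age, number of mice or deleted exons. The names of the deposited matrices swap these genotypes, and every direction below is therefore one between labels. Ikzf1 itself stood at 56.9 UMIs per 1000000 UMIs (CPM) in the Tuft cells of the library labelled +/fl and at 18.9 CPM in those labelled fl/fl, but 3′ tags may lie outside the deleted part. The libraries also differed in sex, since Xist stood at 1317 and 0.902 CPM and Ddx3y at 0 and 64.5 CPM, so sex and genotype as labelled cannot be told apart. After filtering, 4891 cells of the first library and 7669 of the second passed and are used below, with medians of 10731 and 8187 UMIs. The libraries share 25 barcodes, of which 16 and 18 belong to kept cells. Each genotype has a single library, so the 95% intervals below cover counting error only and no difference was checked in replicates.

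Ptprc encodes CD45, the receptor tyrosine phosphatase of nucleated blood cells, which sets the activity of Src-family kinases. Pik3cg encodes the gamma catalytic subunit of phosphoinositide 3-kinase, which is switched on by G-protein-coupled receptors. Sh2d6 and Sh2d7 encode proteins with an SH2 domain, the fold that binds phosphotyrosine, and both are known as tuft cell markers. Nrgn encodes neurogranin, a calmodulin-binding protein of neurons. Adgrg6 is an adhesion G-protein-coupled receptor known for its part in myelination by Schwann cells. Agt encodes angiotensinogen, the liver-made precursor from which renin releases angiotensin.

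In the GENCODE M21 annotation of GRCm38 all 7 are protein-coding genes. Ptprc (ENSMUSG00000026395) spans chr1:138062861-138175708 on the minus strand and overlaps A130071D04Rik, an entry of biotype TEC on the same strand. The part of that entry in the Ptprc counts was not tested. Pik3cg (ENSMUSG00000020573) spans chr12:32173473-32208659, also on the minus strand. Sh2d6 (ENSMUSG00000052631, chr6:72513641-72521707), Nrgn (ENSMUSG00000053310, chr9:37544492-37552904) and Agt (ENSMUSG00000031980, chr8:124556534-124569706) lie on the minus strand and overlap no other annotated gene. Sh2d7 (ENSMUSG00000046460, chr9:54538984-54545020, plus strand) overlaps Cib2 on the other strand. Cib2 stood at 37.8 and 30.4 CPM in Tuft cells, and since the counting is not stated to use strand, Sh2d7 is uncertain to that extent. Adgrg6 (ENSMUSG00000039116, chr10:14402583-14545659, minus strand) overlaps a pseudogene and an antisense RNA.

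The promoters of the 7 genes were read from the RefSeq promoter table of GRCm38.p6, which holds 250 bases before to 50 after each start and matched all 7 genes with 9 windows. Stretches of 30 bases are shown for the pair best known from leukocytes, Ptprc and Pik3cg, and for Sh2d6, chosen among the windows that held a searched motif. In the first 3 lines capitals mark AGGAAGT, a core of ETS-family sites, or its reverse complement ACTTCCT. In the last line they mark TGGGAA, a core of Ikaros-family sites. All lines run 5′ to 3′ on the minus strand, which is the strand of each gene.
Ptprc chr1:138175400-138175429: tacttgaattaAGGAAGTaagaagccattg
Pik3cg chr12:32208666-32208695: acttggttaaaACTTCCTtcctggtaactg
Pik3cg chr12:32208643-32208672: gtaactgcaacACTTCCTctgcatctggat
Sh2d6 chr6:72520113-72520142: tcccaaccagggTGGGAAtgccctgagagg
On either strand, AGGAAGT was found in 2 of the 7 genes, Ptprc and Pik3cg, and in 9.35% of all 32851 windows of the table. Each of these genes has 2 windows that share sites, so the 4 of the 9 windows with the motif are not separate finds. TGGGAA was found in 1 of the 9 and in 25.6% of all windows. The octamer ATGCAAAT, a site of POU factors, was found in 0 of the 9 and in 1.74% of all. The printed motifs do not overlap each other. These matches describe letters only and are not binding sites.

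Cells were clustered without the 7 genes among the variable genes, and 2 of the 21 clusters were named Tuft. All 12 Tuft markers, among them Trpm5, Pou2f3, Avil and Gnb3, reached at least 10 CPM in the Tuft class of both libraries. The larger is called Tuft Ptgs1-high after the cyclooxygenase gene Ptgs1, which stood there at 777 and 565 CPM (here and below, the library labelled +/fl is given first where no label is named). The other is called Tuft Gnat3-high after Gnat3, the taste G-protein gustducin. Tuft cells made up 1830 of the kept cells in the first library (37.4%, Clopper-Pearson interval 36.1 to 38.8) and 809 in the second (10.5%, 9.87 to 11.3). Within Tuft, the Ptgs1-high cluster took 78.3% (76.3 to 80.1) of cells in the first library and 42.9% (39.5 to 46.4) in the second. Leukocytes in the sort were 93 and 136 T-lineage cells and 354 and 324 myeloid and dendritic cells. An unnamed cluster 3 of 933 and 116 cells, led by the muscle genes Myl1 and Acta1, also carried Tuft markers and is kept apart below.

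All 7 genes were higher in Tuft than in the other named epithelial cells, by 11.3-fold to 29.1-fold in the library labelled +/fl and by 21.1-fold to 71.5-fold in the library labelled fl/fl. At least 2-fold higher in Tuft in both libraries were 7 of 7 here and 10.6% of the 9459 genes with enough counts, but the 7 had been picked for this. Pik3cg stood apart most, with 412 CPM in Tuft against 14.2 in the other epithelium labelled +/fl, and 251 against 3.51 labelled fl/fl. Sh2d6 had 860 against 61.3 CPM in the first library and 613 against 17.6 in the second. Ptprc was the lowest of the folds in both libraries, at 47.6 against 4.20 CPM and 46.3 against 2.19 CPM. So RNA counted for the receptor phosphatase of blood cells was present in the Tuft class. Its level did not differ between the libraries beyond counting error (ratio 0.972, 0.850 to 1.11), and protein was not measured. When the unnamed epithelial clusters were added to the other epithelium, a choice made after the values were seen, 7 of 7 genes again passed 2-fold. The size was less stable for Ptprc, whose log2 difference dropped from 3.23 to 2.41 labelled +/fl and from 3.89 to 2.50 labelled fl/fl under a stricter cell filter. Over all alternatives and the other 6 genes it ran from 3.63 (Sh2d6 labelled +/fl) to 6.29 (Pik3cg labelled fl/fl).

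**Figure D1:**
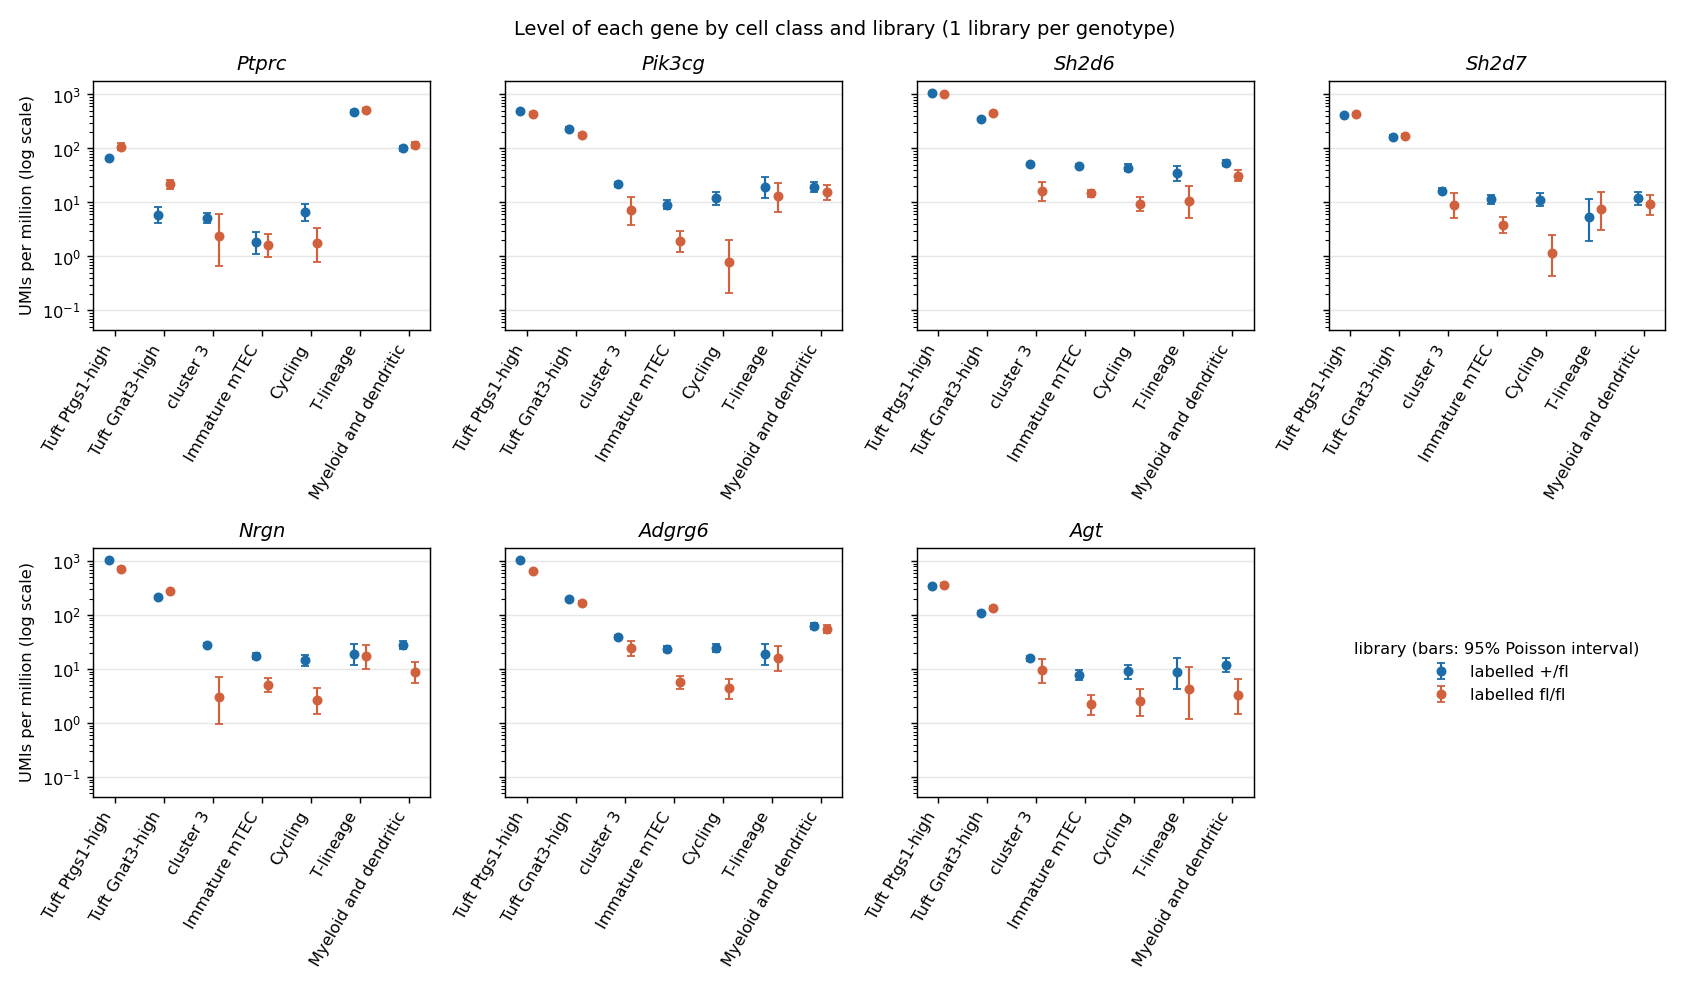
Level of each of the 7 genes in CPM (vertical, log scale) in 7 cell classes or clusters (horizontal), with points for the libraries labelled +/fl (blue) and fl/fl (orange) and bars for exact Poisson 95% intervals. Ptprc peaks in T-lineage cells at 465 and 513 CPM, while the other 6 genes peak in the Tuft Ptgs1-high cluster, and low levels elsewhere are mostly higher in the library labelled +/fl.

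Among all classes with at least 50 cells and the Tuft clusters, 6 of the 7 genes had their highest level in the Tuft Ptgs1-high cluster and their next highest in the Gnat3-high cluster, in both libraries. Neighbouring ranks 1 and 2 did not overlap in their counting intervals for any of these 6. Ptprc was the exception. It stood at 465 CPM (426 to 506) in T-lineage cells labelled +/fl and 513 (468 to 561) in those labelled fl/fl, and at 101 (91.5 to 111) and 116 (102 to 130) in myeloid and dendritic cells. The Ptgs1-high cluster came next with 65.2 CPM (61.0 to 69.6) and 108 CPM (93.2 to 124). In the library labelled fl/fl the intervals of the myeloid and the Ptgs1-high level overlapped, so these neighbours did not differ beyond counting error there.

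The term haematopoietic therefore fits the 7 genes unevenly. Pik3cg, a kinase subunit best known from leukocytes, was 21.3-fold (14.0 to 33.9) higher in Tuft than in T-lineage cells labelled +/fl and 19.4-fold (11.1 to 37.6) labelled fl/fl. Against myeloid and dendritic cells the Tuft level was 21.1-fold and 16.2-fold higher. Sh2d7 had 5.29 and 7.56 CPM in T-lineage cells beside 338 and 244 CPM in Tuft. Nrgn and Agt, neither of them known as a leukocyte gene, had 19.4 and 17.3 CPM and 8.82 and 4.32 CPM in T-lineage cells.

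Low levels were also found in further classes. Labelled +/fl, the Keratinocyte class (86 cells) came next after the Tuft clusters for all 6 genes other than Ptprc. Sh2d6 had 143 CPM there, Nrgn 137, Adgrg6 99.7 and Agt 28.3. Labelled fl/fl, Keratinocyte cells had 21.4, 23.9, 11.4 and 7.32 CPM of these 4 genes. Adgrg6 stood at 62.8 CPM (55.5 to 70.9) and 56.1 CPM (47.0 to 66.5) in myeloid and dendritic cells, where 11.0% and 9.05% of cells thinned to 2000 UMIs had a UMI of it. In Immature mTECs, a class led by Ccl21a and Krt5, 3.52% and 1.05% had one (median depth 10128 and 6456.5 UMIs, against 10803 and 7990 in the myeloid cells). Before thinning these shares were 35.9% and 24.7% of the myeloid and 14.3% and 3.30% of the Immature cells. Agt reached 46.0 CPM (34.0 to 60.8) in Ciliated and 41.7 CPM (34.3 to 50.3) in Neuroendocrine cells labelled fl/fl, against 2.23 CPM in Immature mTECs. In the library labelled +/fl these classes held 16 and 32 cells only.

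Outside Tuft the 6 genes other than Ptprc were mostly higher in the library labelled +/fl, which held more Tuft cells. In Immature mTECs they stood at 2.16% to 5.49% of their Tuft level labelled +/fl and at 0.773% to 2.39% labelled fl/fl. Trpm5, the tuft channel, behaved alike there, at 5.08% and 1.25% of its Tuft level. The part of free RNA from Tuft cells in these low levels was not tested. In cluster 3 the 6 genes stood at 3.51% to 5.96% of the Tuft level labelled +/fl and at 0.746% to 8.10% labelled fl/fl. The tuft genes Trpm5 (9.97% and 7.72%), Rgs13 (10.2% and 7.63%) and Alox5ap (5.29% and 7.65%) are given beside them.

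The Tuft clusters differed in all 7 genes. Each was at least 2-fold higher in the Ptgs1-high than in the Gnat3-high cluster in both libraries. That held for 1.68% of the 8629 genes compared, but the 7 had been picked as high in tuft cells or lower in 1 library. The Ptgs1-high cluster made up 29.3% and 4.52% of kept cells, and the Gnat3-high cluster 8.14% and 6.02%. A gene picked as lower under the label fl/fl could thus favour the Ptgs1-high cluster, so the count is a description. Ptprc differed most in the library labelled +/fl, with 65.2 against 5.89 CPM (11.1-fold, 7.86 to 16.1), and had 108 against 21.8 CPM (4.94-fold, 3.87 to 6.35) labelled fl/fl. Adgrg6 had 1041 against 196 CPM (5.30-fold) and 651 against 170 CPM (3.84-fold), and Nrgn 1064 against 213 CPM (5.0-fold) and 731 against 277 CPM (2.64-fold). Pik3cg differed least labelled +/fl, at 488 against 232 CPM (2.10-fold, 1.98 to 2.23), and had 436 against 177 CPM (2.46-fold) labelled fl/fl. Ptprc and Adgrg6 thus differed more between the 2 clusters than Pik3cg did in both libraries. For Nrgn that held beyond counting error only under the label +/fl. Labelled fl/fl, its interval (2.44 to 2.86) overlapped that of Pik3cg (2.23 to 2.72). Sh2d6 differed 3.13-fold and 2.33-fold, the least of the 7 labelled fl/fl, and Sh2d7 and Agt from 2.47-fold to 3.09-fold. With doublets kept, or with the 7 genes allowed among the variable genes, 3 of the 7 (Ptprc, Nrgn and Adgrg6) passed 2-fold in both libraries and the log2 difference of Pik3cg labelled +/fl dropped to 0.24 and 0.31.

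Single cells often carried several of the genes together. After thinning to 2000 UMIs, Sh2d6 was found in 84.6% and 80.8% of Ptgs1-high cells and in 42.1% and 47.8% of Gnat3-high cells, beside 8.08% and 2.51% of Immature mTECs (before thinning 96.9% and 89.0%, 75.4% and 69.9%, and 32.8% and 8.03%). The median Ptgs1-high cell had UMIs of 4 of the 7 genes in both libraries, and the median Gnat3-high cell of 2. At least 4 of the genes were found in 74.8% and 61.3% of Ptgs1-high cells, against 11.5% and 14.0% of Gnat3-high cells. Among Immature mTECs the shares were 0.104% and 0.0698%. All 7 were seen in 20 and 6 Ptgs1-high cells and in 0 Gnat3-high, T-lineage, myeloid or Immature cells. Because each share rests on 2000 UMIs, a gene not seen in a cell is not shown to be off there.

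Ptprc was found in fewer Tuft cells than the other genes, in 11.5% (9.82 to 13.3) of Ptgs1-high cells under the label +/fl and in 18.8% (14.5 to 23.8) under fl/fl. In the Gnat3-high cluster the shares were 1.03% (0.280 to 2.61) and 3.11% (1.71 to 5.16). Immature mTECs, which should lack the gene, showed 0.207% and 0.209%, and T-lineage cells 81.0% and 71.3%. Median depths before thinning were 8687 and 4848 UMIs in Ptgs1-high, 14232 and 9562.5 in Gnat3-high, and 10128 and 6456.5 in Immature cells. Before thinning the shares with a Ptprc UMI were 31.8% and 33.4% of Ptgs1-high, 4.77% and 12.6% of Gnat3-high and 1.78% and 0.907% of Immature cells. Thinning left out 53 and 55, 8 and 12, and 45 and 112 shallower cells of these groups. The thinned Tuft shares lay above those of Immature mTECs in both clusters, although the Gnat3-high interval labelled +/fl overlapped the Immature interval, 0.0251 to 0.747.

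The 162 and 69 Tuft cells with a thinned Ptprc UMI were then checked for 8 panleukocyte genes, which split into low and high ones. Cd53, a leukocyte tetraspanin, stood at 0 and 2.20 CPM in them, beside 40.6 and 102 CPM in T-lineage cells. Ptprcap, which encodes the CD45-associated protein, had 0 and 2.20 CPM beside 312 and 293 CPM. Coro1a, a leukocyte actin regulator, had 3.04 and 8.81 CPM beside 706 and 551 CPM. Arhgdib, Cd52 and Cytip were also below their T-lineage level, at 16.4 and 24.2, 28.0 and 70.5, and 9.13 and 4.41 CPM, although Cytip labelled +/fl exceeded the 2.03 CPM of the Ptprc-negative Tuft cells. By contrast, Laptm5 (329 and 405 CPM) and Lcp1 (175 and 207 CPM) stood near their T-lineage levels of 404 and 445 CPM and 200 and 254 CPM. Both were found at similar levels in the Ptprc-negative Tuft cells, Laptm5 at 288 and 281 CPM and Lcp1 at 225 and 308 CPM. The cells kept the tuft genes, with Trpm5 at 767 and 824 CPM and Epcam at 2217 and 1631 CPM. Their median doublet scores were 0.0203 and 0.0115, against 0.0285 and 0.0168 in the Ptprc-negative Tuft cells. In the Gnat3-high cluster the order was the other way, with 0.0849 against 0.0317 over 4 positive cells labelled +/fl and 0.0257 against 0.0195 over 14 labelled fl/fl. Those 4 cells also had more Cd52 (174 against 57.5 CPM), Cytip (77.4 against 2.12 CPM) and Arhgdib (77.4 against 19.6 CPM) than the Ptprc-negative cells of the cluster, and the part of doublets in their Ptprc was not tested. Within Tuft the Ptprc-positive cells had 1305 and 780 CPM of Nrgn against 766 and 372 CPM in the negative ones. For Gnat3 the values were 322 and 399 CPM against 1023 and 1289 CPM. Cluster make-up enters here, since 158 and 55 of the positive cells were Ptgs1-high. Within that cluster Nrgn had 1380 and 942 CPM in positive cells against 1025 and 681 CPM. In the Gnat3-high cluster it had 203 and 382 CPM against 213 and 273 CPM.

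Leukocyte markers in the whole Tuft class were low apart from a few genes. The 8 T-lineage markers summed to 8.53 and 8.88 CPM, and none reached 10 CPM. Of the 5 B-lineage markers, 2 were at 0 in each library and Cd79b alone made up 194 of 199 CPM and 123 of 131 CPM. The 10 myeloid and dendritic markers summed to 42.1 and 133 CPM, of which Lyz2, a lysozyme of myeloid cells and secretory epithelium, made up 25.1 and 98.8 CPM. The panleukocyte gene Laptm5 stood at 291 and 292 CPM in Tuft and at 147 and 333 CPM in the other epithelium. Leaving out every Tuft cell with a UMI of any of 10 defining T, B and myeloid genes, Cd79b and Lyz2 included, left 492 and 332 Tuft cells, with Ptprc at 42.7 and 37.3 CPM. In the Ptgs1-high cluster Ptprc then stood at 66.9 and 95.4 CPM. In the Gnat3-high cluster it went from 5.89 to 1.74 CPM labelled +/fl, where Immature mTECs had 1.85 CPM, and from 21.8 to 15.1 CPM labelled fl/fl. Labelled +/fl these values rest on few cells, 19 Ptprc-positive of 398 before and 1 of 120 after. Labelled fl/fl there were 58 of 462 before and 14 of 177 after.

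The libraries were compared first over all kept cells. Of the 7 genes, 6 were at least 2-fold lower under the label fl/fl, against 3.43% of 9931 genes. Adgrg6 had 259 and 40.7 CPM (6.36-fold lower, 6.13 to 6.61), Nrgn 259 and 43.5 CPM (5.96-fold) and Pik3cg 133 and 23.5 CPM (5.66-fold). Sh2d7, at 109 and 23.5 CPM, and Sh2d6, at 290 and 63.9 CPM, were 4.65-fold and 4.54-fold lower, and Agt, at 91.1 and 25.8 CPM, 3.53-fold. Ptprc had 31.4 and 17.5 CPM (1.79-fold lower, 1.67 to 1.91), the smallest difference, and it also comes from leukocytes. Without the Tuft cells that had a UMI of the 10 defining leukocyte genes, which also takes out most Tuft cells, the log2 ratios of Adgrg6, Nrgn and Agt moved from -2.64 to -1.68, from -2.55 to -1.70 and from -1.78 to -0.90. Over all cells, fewer Tuft cells and less RNA per Tuft cell cannot be told apart. In the other named epithelial cells 5 of the 7 were at least 2-fold lower under the label fl/fl, against 1.34% of 9605 genes. They ran from 3.29-fold for Nrgn to 4.04-fold for Pik3cg, and the exceptions were Ptprc and Agt. The 7 had been picked as high in tuft cells or lower in 1 library. The tuft channel gene Trpm5 stood in these cells at 6.34% and 2.06% of its Tuft level. Their make-up also differed, with 44 and 1019 Aire-stage cells, and the part of free Tuft RNA or make-up was not tested.

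Within the Tuft class 1 of the 7 genes was at least 2-fold lower under the label fl/fl, against 2.08% of 9060 genes. That gene was Adgrg6, at 790 and 307 CPM (2.58-fold, 2.46 to 2.70). Nrgn was at the boundary, with 812 and 406 CPM (2.0-fold, 1.92 to 2.09), and missed it once 1 CPM was added to both sides. It passed under 5 of the alternative settings, which made the count 2. Pik3cg was 1.64-fold lower (412 and 251 CPM), and Sh2d6, Sh2d7 and Agt were 1.38-fold to 1.40-fold lower.

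The make-up of the Tuft class entered these values. Ptgs1-high cells gave 70.4% of the Tuft UMIs under the label +/fl and 28.5% under fl/fl. When the clusters of the library labelled fl/fl were weighted as in the library labelled +/fl, the log2 ratio of Sh2d6 moved from -0.49 to 0.00, that of Sh2d7 from -0.47 to 0.06 and that of Agt from -0.46 to 0.10. Pik3cg moved from -0.71 to -0.20. For Adgrg6 and Nrgn a difference was left, with -1.36 moving to -0.64 and -0.998 to -0.44. Ptprc went the other way, from -0.04 to 0.78.

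**Figure D2:**
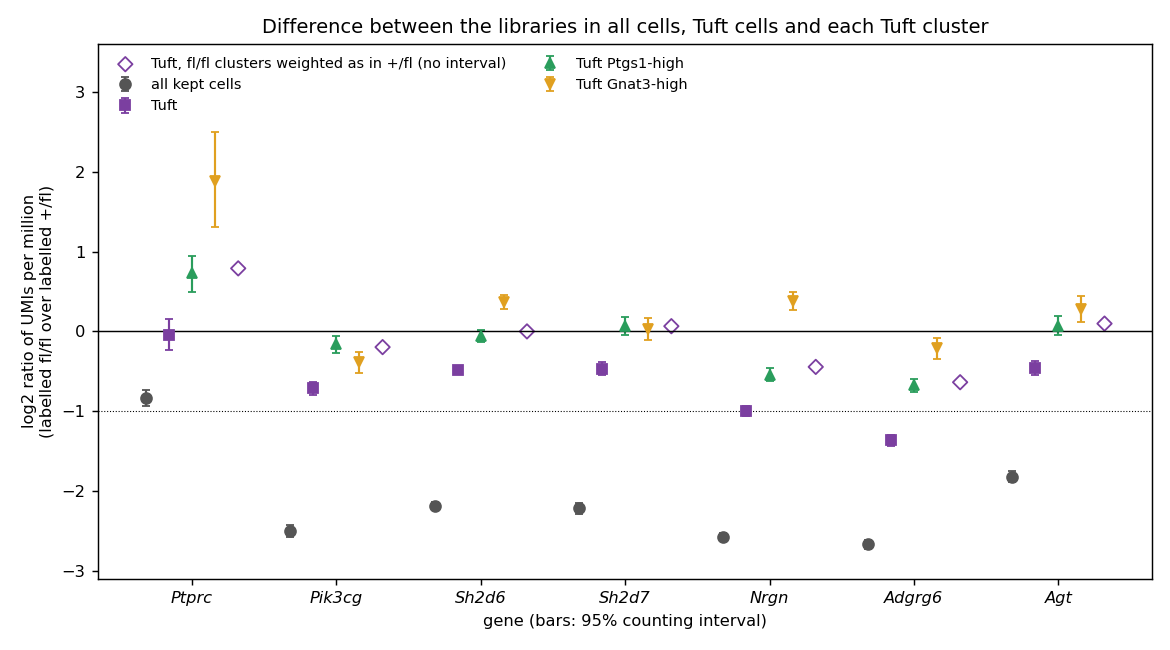
Log2 ratio of the library labelled fl/fl over that labelled +/fl (vertical, without the added 1 CPM) for each gene (horizontal) in all kept cells, Tuft cells and each Tuft cluster, with 95% counting intervals, and as open diamonds for Tuft reweighted to the cluster shares labelled +/fl. Ratios over all cells lie below -1 for 6 genes, while inside the Tuft clusters Sh2d7 lies near 0, Adgrg6 below 0 and Ptprc above 0.

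Inside the Ptgs1-high cluster 0 of 7 genes were at least 2-fold lower under the label fl/fl, against 2.04% of 8886 genes, and 0 of 7 were 2-fold higher, against 3.03%. Sh2d6 (1077 and 1035 CPM), Sh2d7 (410 and 430 CPM) and Agt (346 and 364 CPM) differed by less than counting error, with the ratio intervals of all 3 including 1. Adgrg6 had 1041 and 651 CPM (1.60-fold lower, 1.51 to 1.70) and Nrgn 1064 and 731 CPM (1.46-fold lower, 1.38 to 1.54). Ptprc was higher in the library labelled fl/fl, at 65.2 and 108 CPM (1.65-fold, 1.41 to 1.93). The receptor, neurogranin and CD45 were thus the genes that differed most between the libraries in this cluster. Its cells had medians of 8391 UMIs labelled +/fl and 4255 labelled fl/fl, so the libraries also differed in depth there, and the part of depth was not tested. Under a stricter filter on genes, UMIs and mitochondrial share the log2 ratio of Ptprc dropped from 0.72 to 0.26.

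In the Gnat3-high cluster 0 of 7 genes were at least 2-fold lower under the label fl/fl, against 2.2% of 9181 genes, and 1 of 7 was that much higher, against 3.05%. That gene was Ptprc, which stood at 5.89 and 21.8 CPM (3.70-fold higher labelled fl/fl, 2.48 to 5.63), but the log2 ratio of 1.73 moved to 0.26 under the stricter filter. Pik3cg was 1.31-fold lower (1.2 to 1.43), at 232 and 177 CPM. Nrgn had 213 and 277 CPM, Sh2d6 345 and 445 CPM, and Agt 112 and 136 CPM, all higher in the library labelled fl/fl. The sign of these 3 differences turned under other filters or clusterings, to log2 ratios as low as -0.39, -0.37 and -0.22, so no direction is given for them.

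Clustering at resolution 2 split Tuft into 4 finer clusters, an alternative that removes more of the difference in make-up. They are numbered by rising ratio of Ptgs1 to Gnat3. Under the label fl/fl Ptprc was higher in 4 of 4, with 3.83 and 8.0 CPM in the first, 23.1 and 43.6 in the second, 80.0 and 149 in the third and 61.3 and 101 in the fourth. The folds ran from 1.64 to 2.09, and every counting interval excluded 1. Adgrg6 was lower in 4 of 4, by 1.57-fold to 2.06-fold, with 175 and 84.7 CPM in the first and 1170 and 711 CPM in the third. Nrgn was lower in 4 of 4, by 1.13-fold to 1.70-fold. Agt differed by 1.06-fold to 1.11-fold, and its 4 intervals all included 1. Sh2d6 was higher in 1 finer cluster and lower in 3, with 1 interval above 1 and 2 below it. Sh2d7 was higher in 1, where the interval included 1. In the other 3 Sh2d7 was lower beyond counting error, by up to 1.37-fold. Pik3cg was lower in 4 of 4, by 1.06-fold to 1.99-fold, with 3 intervals below 1.

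The finer clusters were filled unequally. The third, with the highest Ptprc level, held 694 cells labelled +/fl (37.9% of Tuft) and 60 labelled fl/fl (7.42%). The fourth held 505 and 231 cells, or 27.6% and 28.6% of Tuft. Its cells were shallow, with medians of 4204 and 3486 UMIs, and had 11.3% and 11.1% mitochondrial UMIs, against 7.34% and 7.33% in the third. Levels of all 7 genes were lowest in the first cluster, the most Gnat3-rich, in both libraries.

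**Figure D3:**
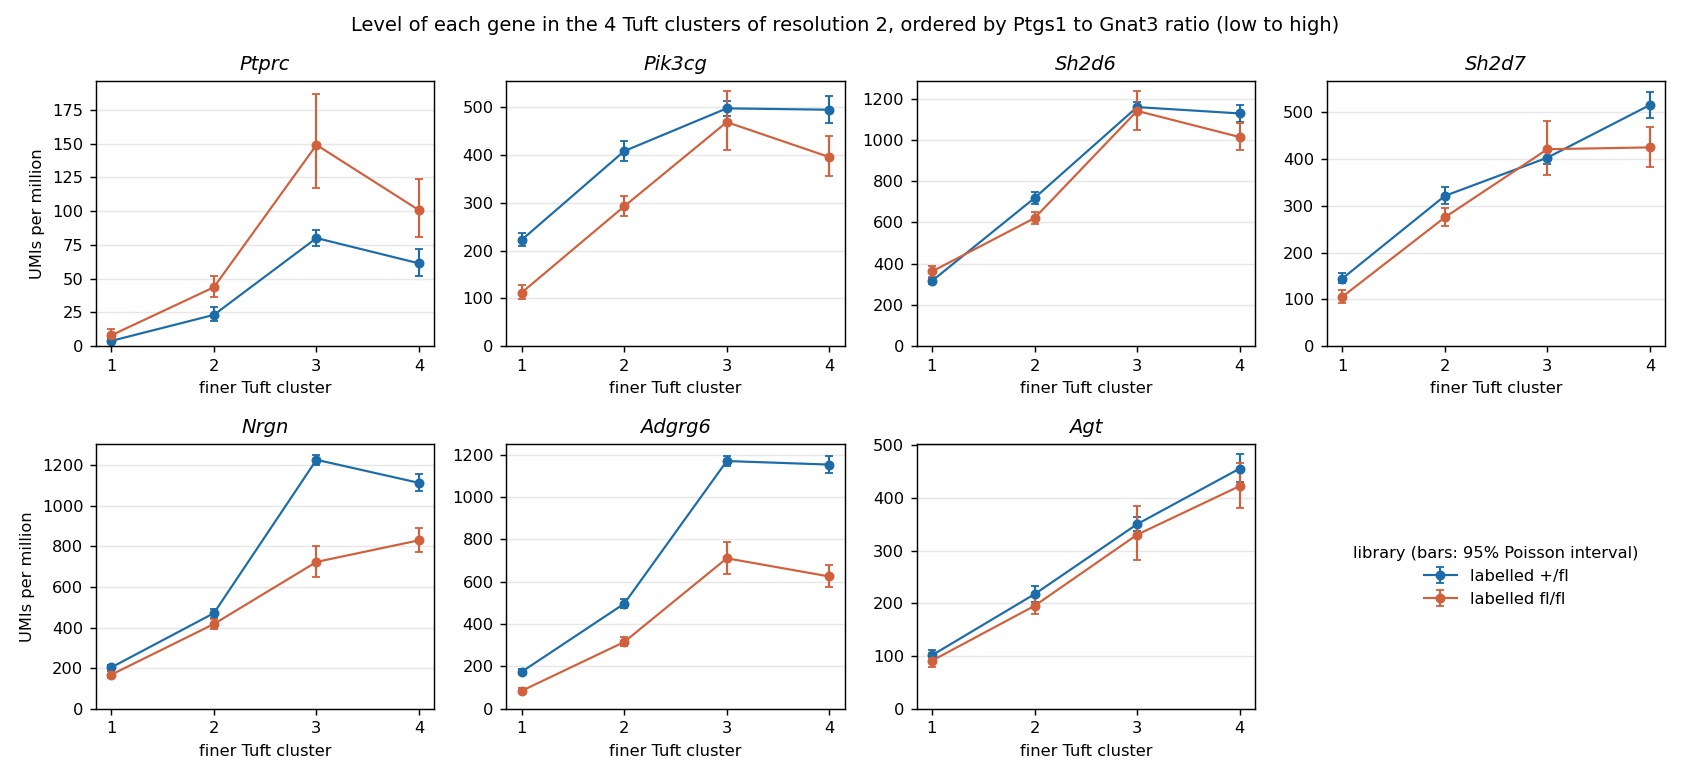
Level of each gene in CPM (vertical, from 0) in the 4 Tuft clusters of resolution 2 (horizontal, ordered by rising Ptgs1 to Gnat3 ratio) for the libraries labelled +/fl (blue) and fl/fl (orange), with exact Poisson 95% intervals. Ptprc lies higher and Adgrg6 lower under the label fl/fl in all 4 clusters, and the intervals of Agt overlap in each cluster.

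Wider lists of partner genes were then described, leaving the 7 genes out. Over all 7 lists, 21 genes were at least 2-fold higher and 5 at least 2-fold lower in Tuft than in other epithelium in both libraries, against 10.6% and 13.1% of all genes. The number of measured genes is given with each list below. Within the Tuft class 0 were at least 2-fold lower under the label fl/fl (0 to 2 over the alternatives), against 2.08% of 9060 genes. Measured for this were 8 class I PI3K, 1 SH2D, 10 CD45 and Src-family and 10 cytosolic signalling genes. The lists of calmodulin partners, adhesion receptors and renin-angiotensin genes gave 9, 4 and 2. These are too few to set 0 apart from the share over all genes. Lists and members were chosen with earlier results known, so the counts describe and do not test.

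Of 7 measured class I PI3K genes, 2 were higher and 0 lower in Tuft, and the list's median log2 difference was 0.45 and 0.29, against 0.12 and 0.08 over all 9459 genes. Pik3r5, a regulatory partner of the gamma subunit, had 340 and 357 CPM in Tuft against 14.4 and 7.92 in other epithelium. Inpp5d, the phosphatase that removes a phosphate from the product of the kinase, had 197 and 181 CPM against 11.2 and 10.2. Pik3r6, the other partner of the gamma subunit, stood at 0.205 and 0.623 CPM, and Pik3cd, the leukocyte delta subunit, at 0.257 and 0.779 CPM. Pik3ca, which most cells express, was within 2-fold.

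Among 10 measured genes of CD45 and the Src-family kinases 6 were higher in Tuft and 1 lower, with a median log2 difference of 2.40 and 2.10. Among the higher genes were the tyrosine phosphatases Ptpn6 (484 and 577 CPM) and Ptpn18 (965 and 1115 CPM) and Lyn, a Src-family kinase (125 and 97.9 CPM). Lck, the kinase on which CD45 acts in T cells, had 4.06 and 2.49 CPM in Tuft and 384 and 204 CPM in T-lineage cells. Ptpn22 was lower in Tuft, at 6.73 and 12.5 CPM against 15.8 and 37.1.

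In the list of cytosolic signalling proteins of leukocytes 6 of 10 measured genes were higher and 0 lower. Vav1, a guanine nucleotide exchange factor, had 324 and 325 CPM against 18.4 and 5.85, Bmx, a Tec-family kinase, 567 and 601 CPM against 23.3 and 12.6, and Fyb, an adaptor, 1037 and 910 CPM against 51.6 and 40.1. Plcg2, Skap2 and Dok3 completed the 6. The T cell adaptors Lat, Skap1 and Lcp2 and the kinase Zap70 stood at 1.09 CPM or less in Tuft in both libraries, while Lat had 422 and 264 CPM in T-lineage cells. Btk, Was and Dok2 were also at 1.40 CPM or less.

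**Figure D4:**
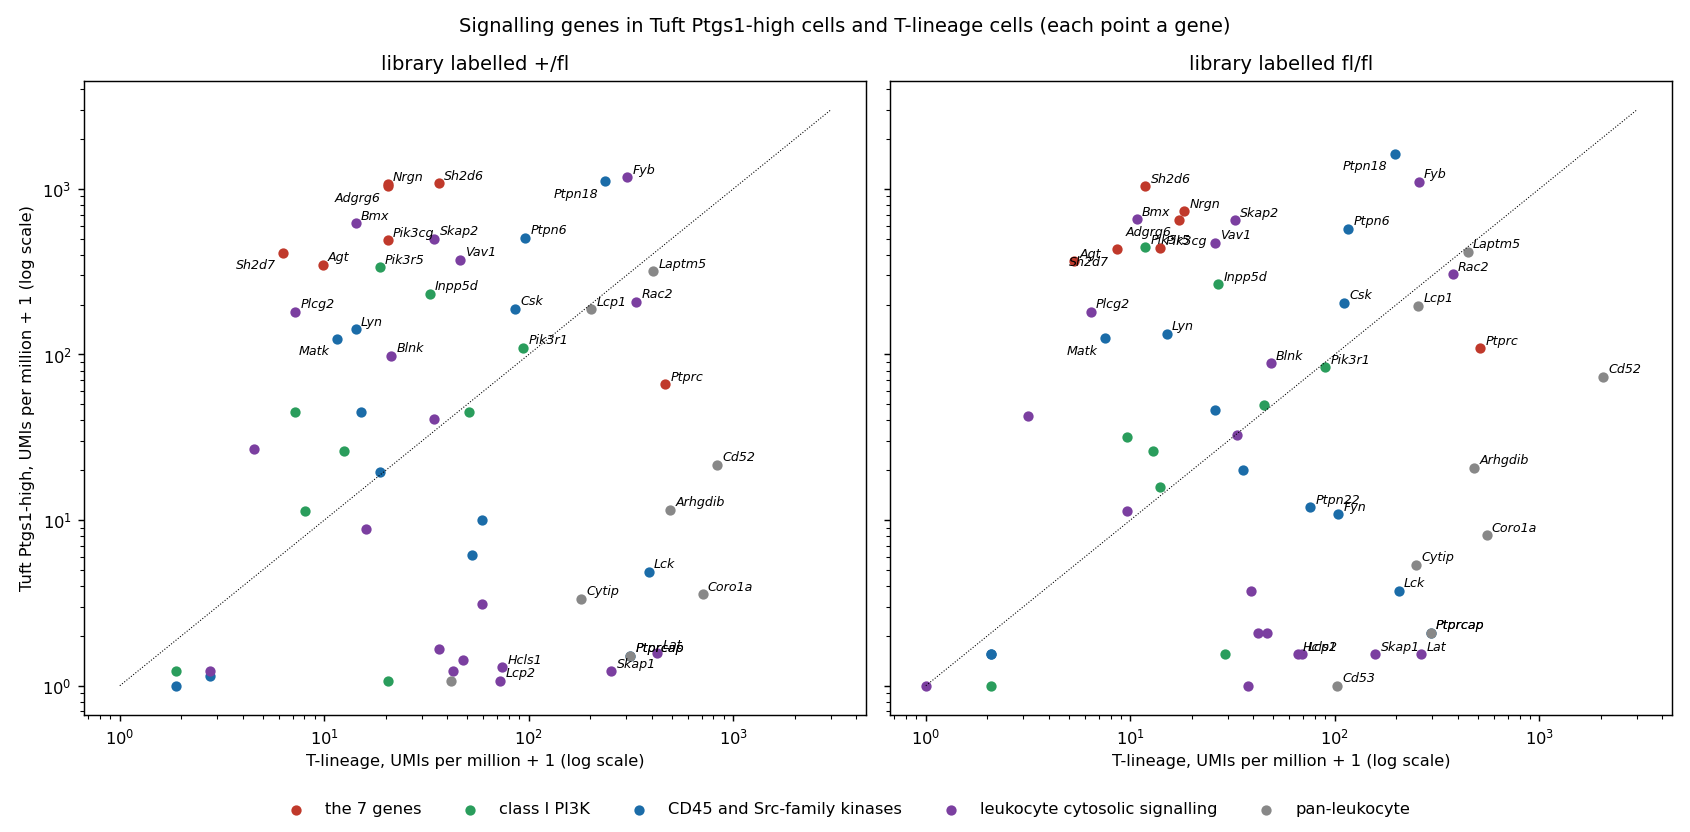
Level in Tuft Ptgs1-high cells (vertical) against T-lineage cells (horizontal), both as CPM plus 1 on log scales, for the 7 genes and genes of 4 lists, with 1 panel per library and a dotted line of equal level. Pik3cg, Vav1 and Bmx lie far above the line, and Lck, Lat, Coro1a and Ptprcap far below it.

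Partners of the other genes were less uniform. Of 10 measured calmodulin partners 4 were higher in Tuft, Calm2, Camk2b, Camk2d and Ppp3ca, and 1, Camk4, was lower. Camk2d, a calmodulin-dependent kinase, had 313 and 337 CPM against 31.9 and 26.9. Ppp3ca, a calcineurin subunit, had 508 and 320 CPM in Tuft, against 111 and 92.1. Of 5 measured adhesion receptors other than Adgrg6, 3 were higher (Adgrg2, Adgrl3 and Adgrb2) and Adgrg1 was lower. Adgrg2 had 133 and 69.6 CPM and Adgrl3 78.7 and 40.0 CPM in Tuft. Over the whole Tuft class both thus differed between the libraries in the direction of Adgrg6, with log2 ratios of -0.92 and -0.96. Cluster make-up was not taken out of these ratios. By cluster, Adgrg2 had 166 and 114 CPM in Ptgs1-high cells and 53.0 and 51.9 CPM in Gnat3-high cells. Of 2 measured SH2D genes other than the 2 described, Sh2d4a and Sh2d4b, both were lower in Tuft.

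For Agt, 2 other genes of the renin-angiotensin list were measured, and 0 were 2-fold higher. Ren1, the enzyme that cleaves angiotensinogen, stood at 3.80 and 9.04 CPM in Tuft, against 0.102 and 0.916 in other epithelium and below the floor of 10 CPM. Ace was at 0.154 and 0 CPM in Tuft and the receptor gene Agtr1a at 0 in both.

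Likeness of pattern was measured over 25 profiles of class or Tuft cluster by library, among 14080 genes. The profiles share libraries and depth, so the Pearson correlations of log2(CPM + 1) are descriptions. The gene most like Ptprc was Cd37 (0.909), followed by Kif21b and Prkcb. For Pik3cg the genes were Vav1 (0.973), Sh2d7 and Pik3r5, and those like Adgrg6 included Chrdl1 (0.945) and Pik3cg (0.942). Sh2d6 was most like Chrdl1 (0.977), Sh2d7 like Trpm5 (0.972), Nrgn like Sh2d6 (0.957) and Agt like Hgfac (0.940). Ptprc correlated with the other 6 at 0.227 to 0.497, and those 6 with each other at 0.835 to 0.971, so Ptprc had a pattern of its own among the 7.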

How the data were processed

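Single-cell 3′ RNA libraries of sorted mTECs, 1 per genotype, were analysed. Each deposited matrix holds whole-number UMI counts, not normalized. Cell Ranger made them for the authors, as the submitters' processing notes list it (Seurat is listed too, with no use stated), and the matrix headers name version 3.1.0. For the genome build, nothing was given in the sources used here.

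Cells with at least 500 genes, 1000 UMIs and at most 15% mitochondrial UMIs passed, 5099 of 7304 barcodes labelled +/fl and 8208 of 11095 labelled fl/fl. Scrublet in scanpy 1.11.5 marked 1 and 0 cells by itself, under 0.5%, so the cells with the highest scores, 208 and 539, were removed at 0.8% per 1000 cells. Total UMIs were 85260592 and 99871505 before filtering. Both libraries were clustered together (2000 variable genes without the 7, 30 components, 15 neighbours, Leiden resolution 1). Clusters were named from 20 marker lists, by the list whose markers had the largest average log2 fold, if at least 3 markers were 2-fold up and found in 10% of cells, and if the 10 leading genes held a marker of it and no lead of another class. A name was also withheld where another list had a larger share of its markers met. The same held where a non-epithelial list came with Epcam at an epithelial level. This naming rule was tightened after the clusters were seen. It leaves clusters 3, 6, 7 and 12 unnamed, with 933, 50, 19 and 155 cells in the first library and 116, 688, 1430 and 23 in the second. Clusters 3 and 6 failed on the share of markers met, cluster 7 on the leading genes and cluster 12 on Epcam.

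Counts were summed per library and class and given as CPM with exact Poisson intervals. Ratios are log2 with 1 CPM added, and folds and their exact intervals are of CPM alone. A gene counts as 2-fold changed at a log2 ratio of 1 or more, among genes with at least 10 CPM on either side and 50 UMIs. Shares of cells were taken after thinning to 2000 UMIs. No test was made with 1 library per genotype. The script was tested on simulated data. The 7 genes and all lists were chosen with earlier results of these data known. Named genes are the 7, any gene of the lists, and the 3 most correlated with each of the 7, and a few items are not reported here. Alternatives changed the cell filter, clustering, scaling (edgeR 4.0.16 TMM factors, DESeq2 1.42.0 size factors), pseudocount, floor, thinning depth and the definition of Tuft.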

Additional observations from a re-analysis of the deposited data

Results flagged for a closer look

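Nrgn differed in opposite directions between the libraries in the Tuft clusters. Its log2 ratio, with the label fl/fl as numerator, was 0.38 in the Gnat3-high cluster and -0.54 in the Ptgs1-high cluster, and both counting intervals excluded equality. The difference between the clusters was not tested, since each rests on 1 library per genotype. The positive sign in the Gnat3-high cluster was lost under 4 alternatives, and at resolution 2 Nrgn was lower under the label fl/fl in 4 of 4 finer Tuft clusters.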

How the results depend on the processing

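Some counts stayed within 1.5 times of their value under every alternative that gave one: those of the genes lower over all cells (6, between 5 and 6), higher in Tuft (7), highest in a Tuft cluster (6), and the list genes higher in Tuft (21, between 20 and 23). The count of the 7 genes 2-fold lower within Tuft (1) became 2 with the stricter cell filter, libraries clustered apart, TMM factors, DESeq2 size factors and Tuft set by 3 markers. The count within a Tuft cluster (0) became 1 with doublets kept and at resolution 0.5 and 2. The count of list genes lower within Tuft (0) became 1 with doublets kept, the stricter filter and the 7 genes allowed as variable genes. It also became 1 at resolution 0.5, with mean per-cell CPM, with DESeq2 size factors and with no floor. With clusters made apart, TMM factors and Tuft set by 3 markers it became 2. Where the 7 genes were allowed, 4 of them entered the variable genes. In the Gnat3-high cluster signs turned for Sh2d6 (-0.37 with doublets kept, -0.075 with the stricter filter, -0.14 with the 7 genes allowed as variable genes). They also turned for Nrgn (-0.39, -0.30 and -0.17 likewise, -0.28 at resolution 2) and for Agt (-0.22, -0.12 and -0.10 likewise, -0.15 at resolution 2). Adgrg6 turned to 0.11 without Tuft cells that had defining leukocyte UMIs. The cause was not tested. Of the other single values, 452 stayed within the counting interval and 327 moved past it with the same sign where called. Within the Ptgs1-high cluster Ptprc ran from 0.26 to 0.85 and Adgrg6 from -0.97 to -0.67. TMM shifted all log2 ratios by -0.10 over all cells and by 0.12 between the Tuft clusters labelled +/fl. Libraries clustered apart and Tuft set by markers gave no cluster values, and resolution 0.5 gave 1 Tuft cluster. No paired analysis was possible because each genotype has 1 library. The 8-gene leukocyte condition, the wider comparator, the removal of shared barcodes and the finer Tuft clusters as such were added after seeing the data.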

Other observations

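Cd79b, a signalling chain of the B cell receptor, was found in Tuft cells at 194 CPM under the label +/fl and at 123 CPM under fl/fl, against 15.2 and 21.5 CPM in other epithelium. It stood at 13.2 and 19.4 CPM in T-lineage cells and at 20.7 and 75.0 CPM in myeloid and dendritic cells, where Cd79a (12.1 and 78.3 CPM) and Ms4a1 (7.38 and 43.5 CPM) were found too. Its partner chain Cd79a had 1.03 and 0.623 CPM in Tuft, and the B cell gene Ms4a1 had 0 UMIs there in both libraries. Within Tuft, Cd79b had 223 and 174 CPM in the Ptgs1-high and 124 and 103 CPM in the Gnat3-high cluster.

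Cd52 and Lyz2 were higher in the Tuft cells of the library labelled fl/fl, and were so in the other epithelium as well. Cd52, a surface peptide of leukocytes, had 32.2 and 158 CPM in Tuft and 162 and 924 CPM in other epithelium. Lyz2 had 25.1 and 98.8 CPM in Tuft and 140 and 544 CPM in other epithelium.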
